A study of Rattus norvegicus with 18 samples.

Results

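The genes described are 9 members of the JAK, STAT and SOCS family, namely the transcription factor genes Stat2, Stat3, Stat5b and Stat6, the kinase genes Jak1, Jak2 and Tyk2, and the inhibitor genes Socs2 and Socs3. They were taken by symbol from the 38445 genes of the deposited count tables, and all 9 passed the filter on low values that kept 17853 genes for testing. RNA was sequenced from the dorsal hippocampus of 18 adult male wild-type Sprague Dawley rats, bought at 75 to 85 days of age, with 1 library per rat. Of these, 6 were fed the Lieber-DeCarli control liquid diet, 6 were fed the same diet with ethanol (9% v/v for 16 days, 0 h of withdrawal), and 6 had 15 days of the 9% diet before a switch to control diet for 24 h. These groups are called control, ethanol and withdrawal. Total counts on genes lay between 30873228 and 42679748 per rat.

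JAK proteins are tyrosine kinases that sit on the inner side of cytokine receptors. When a ligand such as interleukin-6, leukemia inhibitory factor, an interferon or growth hormone joins the receptor chains, the kinases phosphorylate the receptor and then the STAT proteins that dock on it, and the paired STATs enter the nucleus and bind DNA. SOCS genes are among the targets of STATs, and their proteins bind the receptors or the kinases and switch the pathway off. In the brain, STAT3 is best known as a regulator of reactive astrocytes. The libraries measure mRNA, so neither the phosphorylation that activates STAT proteins nor their amount is seen here.

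Levels are given as CPM, the read pairs on a gene relative to all those counted in its library, scaled to a fixed total after TMM normalization. A gene was called differentially expressed (DE) at q < 0.1, where q is the Benjamini-Hochberg adjusted p of limma-voom over all genes tested in a comparison. The model held all 3 groups and 3 surrogate variables, which are unnamed sources of variation estimated from the data. The CPM values of 6 rats against 6 were also set against each other, without surrogate variables, in an exact permutation test (two-sided), whose smallest possible p is 0.00216.

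Several features of the libraries bear on every comparison. Of the 3 sets of index sequences, one was used for control rats alone, one for the ethanol rats together with withdrawal rats 1 and 2, and one for withdrawal rats 3 to 6, so the index set and the difference from control rats cannot be told apart. Withdrawal rat 1 was the highest of all 18 rats in 3 of the 9 members and the lowest in 2. Summed choroid plexus markers ranged from 31.2 to 5719 CPM among withdrawal rats (1173 to 2447 in control rats). Summed red blood cell markers were higher in control rats (78.8 to 142 CPM) than in ethanol rats (23.2 to 56.0), and withdrawal rats ran from 23.8 to 89.6 CPM; all 3 such markers tested were called lower in both groups than in control rats (limma-voom). The part of these differences in the results below was not tested.

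**Figure D1:**
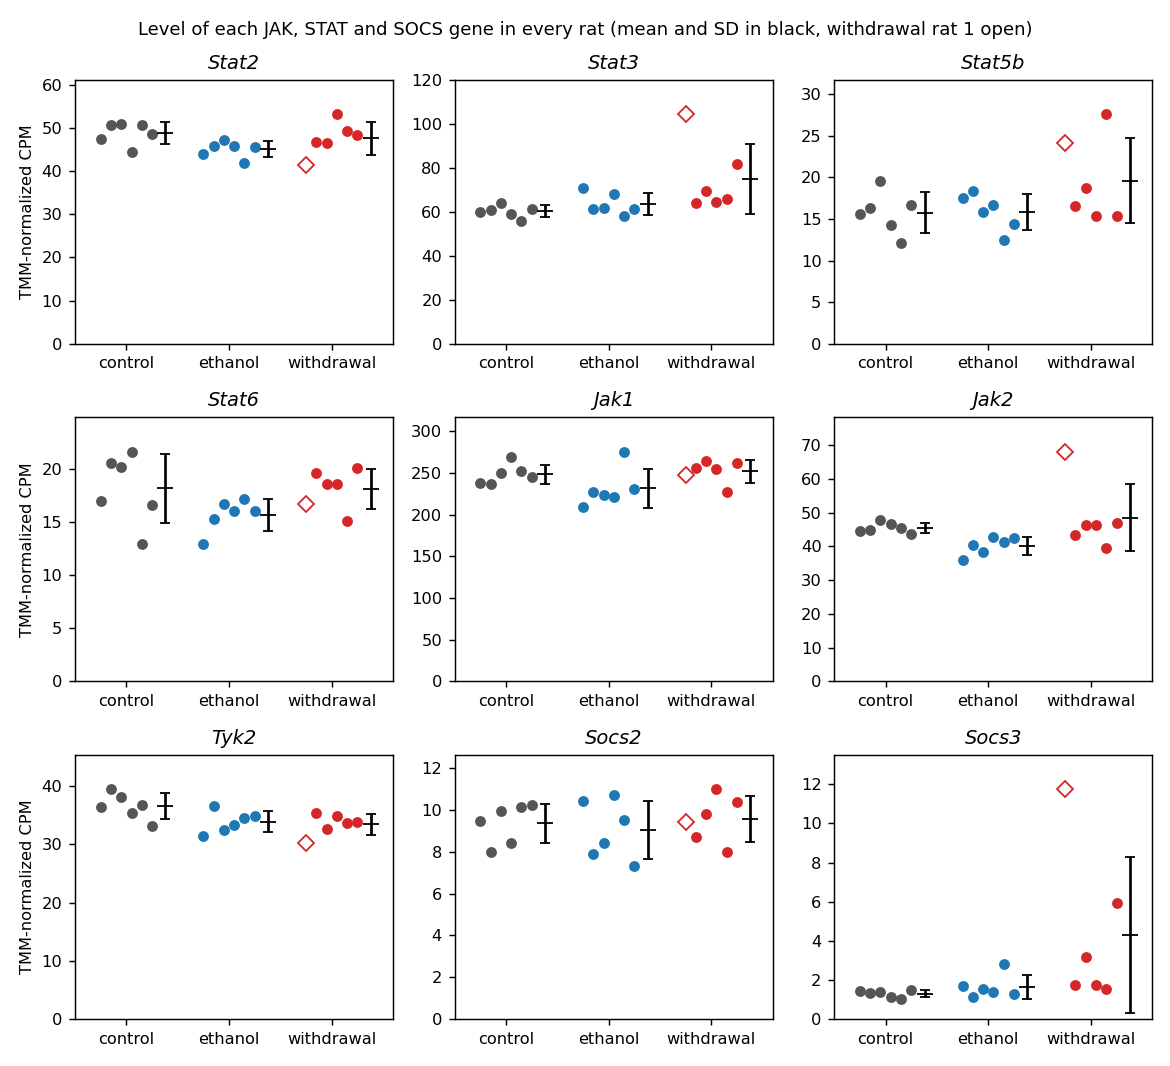
TMM-normalized CPM (vertical axes, from 0) of the 9 genes in each of the 18 rats, by group (horizontal axes). Points are rats, the open diamond is withdrawal rat 1, and black bars are the group mean ± SD. Stat3 and Socs3 reached their highest values, 104 and 11.7 CPM, in withdrawal rat 1, and all 6 ethanol rats lay below the control rats in Jak2.

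Between withdrawal and control rats, 3 of the 9 members were DE and all 3 were increased, namely Stat3, Stat5b and Socs3. The background was 2.85% of all genes called higher and 5.41% called in either direction. The other 6 members, both of the remaining STATs, all 3 kinases and Socs2, were not called, with log2 fold changes between -0.13 (Tyk2) and 0.09 (Jak2). Between withdrawal and ethanol rats 0 of 9 were called by limma-voom (background 2.72%), although 5 had an unadjusted p under 0.05 (16.7% of all genes did). DESeq2 with the same surrogate variables called 3 there and 6.59% of the 17853 genes. Between ethanol and control rats 0 of 9 were called by limma-voom (background 0.493%), edgeR (0.538%) and DESeq2 (2.65%), and Stat2 alone had an unadjusted p under 0.05 (12.5% of all genes did). Without surrogate variables limma-voom called 0 of 9 in each comparison, with backgrounds of 0.23%, 3.48% and 0.28%.

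**Figure D2:**
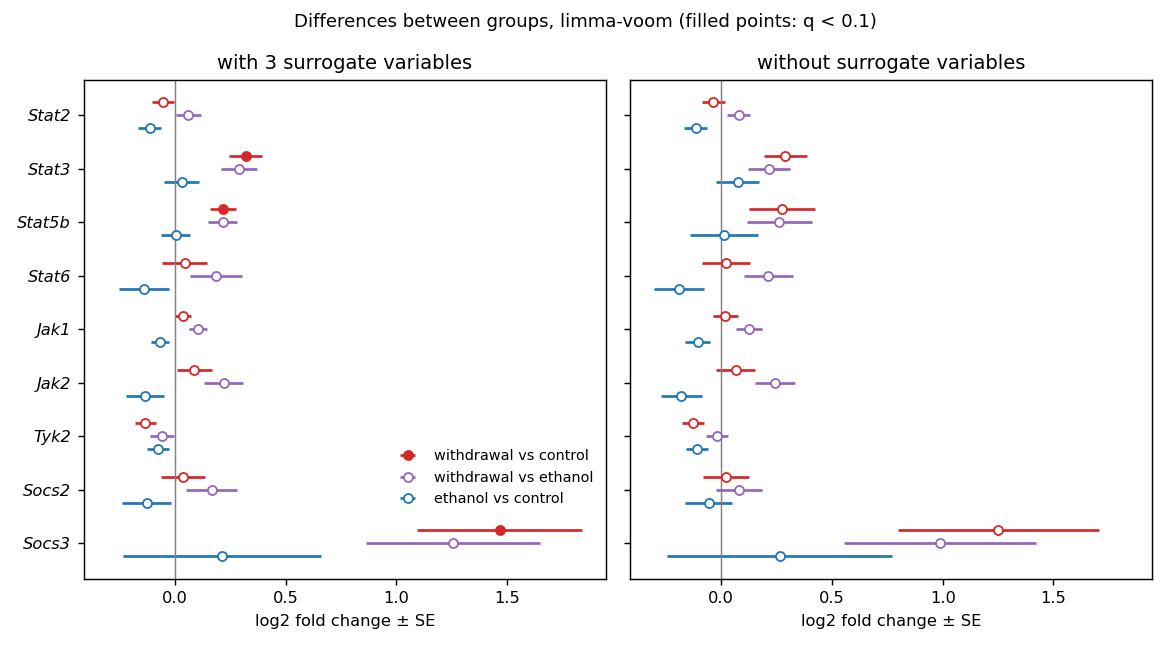
Log2 fold change ± SE (horizontal axis) of the 9 genes (vertical axis) in the 3 comparisons, from limma-voom with 3 surrogate variables on the left and without them on the right. Filled points have q < 0.1. The 3 filled points, Stat3, Stat5b and Socs3 in withdrawal over control rats, are open without surrogate variables, where their log2 fold changes are 0.29, 0.27 and 1.25.

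Stat3, whose protein carries the signal of the gp130 cytokines, had values of 55.9, 60.3 and 64.1 CPM (lowest, median and highest) in control rats. In ethanol rats the same 3 values were 57.9, 61.6 and 70.8 CPM. In withdrawal rats they were 63.8, 67.6 and 104 CPM. Only the lowest withdrawal rat fell inside the control range, and the spread grew from an SD of 2.73 CPM in control rats to 15.9 CPM in withdrawal rats, with rats 1 (104 CPM) and 6 (81.7 CPM) well above the others. The increase in withdrawal over control rats had a log2 fold change of 0.32 (SE 0.07, limma-voom q = 0.0372), and the exact permutation test gave p = 0.00433 (n = 6 per group). Without surrogate variables limma-voom gave q = 0.26. Without withdrawal rat 1 the log2 fold change was 0.22 (q = 0.0462, limma-voom), and without withdrawal rat 6 it was 0.31 (q = 0.163). Leaving out rat 6 lowered the count of DE genes from 965 to 23 of 17828, and no member was then called. Against ethanol rats the difference was 0.29 (SE 0.08, limma-voom q = 0.101). Withdrawal rats 1 and 2, which share the index set of the ethanol rats, differed from them by 0.36 in mean log2 CPM (exact permutation p = 0.107, smallest possible 0.0357). That value came almost wholly from rat 1, since rat 2, at 63.8 CPM, lay close to the ethanol mean of 63.5 CPM. Rats 3 to 6 differed from ethanol rats by 0.14 (p = 0.11, exact permutation test).

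Stat5b, a carrier of growth hormone and prolactin signals, ranged from 12.1 to 19.6 CPM in control rats (median 16.0), from 12.4 to 18.4 CPM in ethanol rats (median 16.3) and from 15.3 to 27.6 CPM in withdrawal rats (median 17.6). Withdrawal rats 5 (27.6 CPM) and 1 (24.1 CPM) exceeded all control rats, and the other 4 lay within the control range. With surrogate variables the gene was increased in withdrawal over control rats (log2 fold change 0.22, SE 0.06, limma-voom q = 0.0621). Without them the difference was not beyond the spread between rats (q = 0.491, limma-voom), nor was it in the exact permutation test of the CPM values (p = 0.139, n = 6 per group). The call was also lost without withdrawal rat 1 (q = 0.111) or rat 6 (q = 0.17, limma-voom) and in 5 other fits that each left out 1 rat. Stat5b lies near Stat3 on chromosome 10 of Rnor_6.0, with Stat5a between them. Stat5b spans 88686207 to 88712313 on the minus strand, Stat5a 88764732 to 88789060 on the plus strand, and Stat3 88790401 to 88842263 on the minus strand, so that the 3' ends of Stat5a and Stat3 are 1340 bases apart. Stat5a, at 4.62 ± 1.08 CPM in control rats and 5.08 ± 1.00 CPM in withdrawal rats (SD, n = 6 each), was not called (log2 fold change 0.11, limma-voom q = 0.646). Stat5a and Stat5b are close copies, and read pairs that fit both were not counted for either.

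The upstream sequences of Stat3 and Stat5b are shown because both genes were called in withdrawal over control rats. That of Cish is shown because its window has the most matches, among the family windows at hand, to the sequence that paired STATs bind. Each printed sequence is the 250 bases before a RefSeq transcript start in the assembly GRCr8, written 5' to 3' on the strand of the gene. GRCr8 is a later build than that of the counts. The start used lies 154 bases inside the outer end of the annotated Stat3 gene and 226 bases inside that of Stat5b, so that many of the printed bases lie within those genes, while the Cish start is at the outer end. Capitals mark matches to TTCNNNGAA, which reads the same on both strands.
Stat3 (chr10:86363360-86363609, minus strand): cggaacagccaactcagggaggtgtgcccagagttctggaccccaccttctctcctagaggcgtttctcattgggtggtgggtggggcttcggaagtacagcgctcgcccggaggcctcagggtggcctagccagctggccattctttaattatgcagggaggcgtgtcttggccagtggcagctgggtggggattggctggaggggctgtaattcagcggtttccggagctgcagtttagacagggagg
Stat5b (chr10:86275953-86276202, minus strand): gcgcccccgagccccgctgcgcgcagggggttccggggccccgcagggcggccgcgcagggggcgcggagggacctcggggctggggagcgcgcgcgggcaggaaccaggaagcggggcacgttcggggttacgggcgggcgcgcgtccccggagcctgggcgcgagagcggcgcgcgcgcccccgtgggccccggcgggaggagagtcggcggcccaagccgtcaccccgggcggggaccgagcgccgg
Cish (chr8:116850719-116850968, plus strand): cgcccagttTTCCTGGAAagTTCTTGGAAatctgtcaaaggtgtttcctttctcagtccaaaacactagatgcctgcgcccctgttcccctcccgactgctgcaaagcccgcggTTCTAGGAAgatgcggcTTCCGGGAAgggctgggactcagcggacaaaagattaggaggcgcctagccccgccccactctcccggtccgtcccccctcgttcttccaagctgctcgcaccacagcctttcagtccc
Cish, a SOCS family gene known to be induced by STAT5, holds 4 matches, whose first bases lie at -241, -230, -136 and -119 from the start. Windows of 300 bases that also take in the 50 bases after the start were at hand for 6 of the 9 members (Stat2, Stat3, Stat5b, Stat6, Jak2 and Socs3), and none of them holds TTCNNNGAA. On both strands they also lack TTC and GAA separated by 4 bases, the form preferred by STAT6, and GGAA or GAAA followed after 2 bases by GAAA, 2 cores of interferon-response elements. Of all 33469 promoter windows of that length, 8.87% hold TTCNNNGAA, 7.28% the form with 4 bases between, and 2.94% and 3.92% the cores that begin with GGAA and GAAA. The start used for Socs3 lies 1207 bases and that for Stat2 65 bases inside the outer end of the gene, so the Socs3 window does not cover the outermost start. Of the 6 member windows, those of Stat2 and Stat3 hold CCAAT 2 times each (37.5% of all windows hold it), and those of Stat2, Stat5b and Jak2 hold GGGCGG 4, 3 and 1 times (33.1% of all windows), on either strand. Cish was not called in any comparison by limma-voom. Its levels were 2.32 ± 1.14 CPM in control rats, 2.19 ± 0.429 in ethanol rats and 1.90 ± 0.405 in withdrawal rats (SD, n = 6 each).

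Stat2, a STAT of the interferon response, had lowest, median and highest values of 44.5, 49.6 and 51.0 CPM in control rats, 41.9, 45.7 and 47.3 CPM in ethanol rats, and 41.5, 47.6 and 53.2 CPM in withdrawal rats. The ethanol rats were low, with 2 of the 6 below every control rat. The difference of ethanol from control rats was -0.11 on the log2 scale (SE 0.05, limma-voom q = 0.387), and the exact permutation test of the CPM values gave p = 0.0216 before any adjustment (n = 6 per group). Withdrawal rats differed from control rats by -0.05 (SE 0.05, limma-voom q = 0.58).

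Stat6, which acts for the receptors of interleukin-4 and interleukin-13, had a wide range in control rats, from 13.0 to 21.6 CPM (median 18.6). Ethanol rats ran from 12.9 to 17.2 CPM (median 16.0) and withdrawal rats from 15.1 to 20.1 CPM (median 18.6). Withdrawal rats lay within the control range, with a log2 fold change of 0.04 (SE 0.10, limma-voom q = 0.843). They were above all ethanol rats in 4 of 6 cases (log2 fold change 0.18, SE 0.12, limma-voom q = 0.446).

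Jak1, the kinase shared by the gp130, interferon and common gamma chain receptors, was the member with the highest level. Control rats had 248 ± 11.5 CPM, ethanol rats 231 ± 22.8 and withdrawal rats 252 ± 13.7 (SD, n = 6 each). In ethanol rats 5 of the 6 lay below every control rat, while ethanol rat 5, at 275 CPM, was the highest of all 18. The difference of ethanol from control rats was -0.07 (SE 0.04, limma-voom q = 0.512), and that of withdrawal from ethanol rats was 0.10 (SE 0.04, limma-voom q = 0.217). Jak1 overlaps Raver2 on the opposite strand, and the counts were made by strand.

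Jak2, the kinase of the growth hormone, erythropoietin and leptin receptors, showed the clearest separation of ethanol rats. Control rats ran from 43.7 to 47.9 CPM (median 45.2) and ethanol rats from 35.9 to 42.7 CPM (median 40.9), so that the 2 groups did not overlap. The exact permutation p was 0.00216, the smallest possible (n = 6 per group). Among all genes tested, 0.398% had ethanol rats all below control rats and 1.32% had no overlap in either direction. In the model the same difference was -0.13 (SE 0.09, limma-voom q = 0.549), and without withdrawal rat 1 it was -0.16 (SE 0.05, limma-voom q = 0.13). Withdrawal rat 1 had 68.0 CPM and the other withdrawal rats 39.6 to 47.0 CPM. The withdrawal group thus straddled the control range, with a log2 fold change of 0.09 (SE 0.08, limma-voom q = 0.577) that changed to -0.02 without rat 1. Against ethanol rats 5 of the 6 withdrawal rats were higher than every ethanol rat (log2 fold change 0.22, SE 0.09, limma-voom q = 0.224; exact permutation p = 0.0195).

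Tyk2, the kinase of the type I interferon receptor, had a lower mean in withdrawal than in control rats but was not called. Its level was 36.6 ± 2.18 CPM in control, 33.9 ± 1.86 in ethanol and 33.4 ± 1.86 in withdrawal rats (SD, n = 6 each). The difference of withdrawal from control rats was -0.13 (SE 0.05, limma-voom q = 0.136), and the exact permutation test gave p = 0.0238 before adjustment. Among the fits that left out 1 rat, only that without withdrawal rat 2 called Tyk2 (-0.16, limma-voom q = 0.0759, with 10.7% of all genes called). Withdrawal rat 1, the highest rat for Stat3, was the lowest for Tyk2 at 30.2 CPM.

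Socs2, an inhibitor of growth hormone signaling, was nearly level, at 9.37 ± 0.947, 9.05 ± 1.39 and 9.56 ± 1.10 CPM in control, ethanol and withdrawal rats (SD, n = 6 each). The log2 fold change of withdrawal over control rats was 0.04 (SE 0.10, limma-voom q = 0.87). The 2 SOCS members therefore had unlike results, Socs2 not being called while Socs3 was.

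Socs3, which shuts off gp130 and leptin receptor signaling, had the largest change of the 9 and the lowest level. Control rats had 1.04 to 1.49 CPM (median 1.36), ethanol rats 1.13 to 2.80 CPM (median 1.44) and withdrawal rats 1.53 to 11.7 CPM (median 2.44). These rest on 35 to 55 read pairs per control rat and 57 to 361 per withdrawal rat. All 6 withdrawal rats lay above all 6 control rats, which held in this direction for 0.521% of all genes tested, but 3 of them (rats 2, 4 and 5, with 1.74, 1.73 and 1.53 CPM) did so narrowly and 3 (rats 1, 6 and 3, with 11.7, 5.91 and 3.15 CPM) by a wide margin. The count of withdrawal rat 5, the lowest of the group, was 57 (95% exact Poisson interval 43.2 to 73.9, counting error only), and that of control rat 6, the highest control by CPM, was 54 (40.6 to 70.5), so these 2 rats could not be told apart at this depth. The gene was increased in withdrawal over control rats (log2 fold change 1.47, SE 0.37, limma-voom q = 0.0501; exact permutation p = 0.00216, n = 6 per group). Without surrogate variables limma-voom gave q = 0.292. Leaving out withdrawal rat 1 gave a log2 fold change of 1.12 (q = 0.0636, limma-voom), leaving out rat 6 gave 1.34 (q = 0.197), and the call was also lost without control rat 6. Against ethanol rats the difference was 1.25 (SE 0.39, limma-voom q = 0.122), and ethanol rat 5, at 2.80 CPM, lay among the withdrawal rats.

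**Figure D3:**
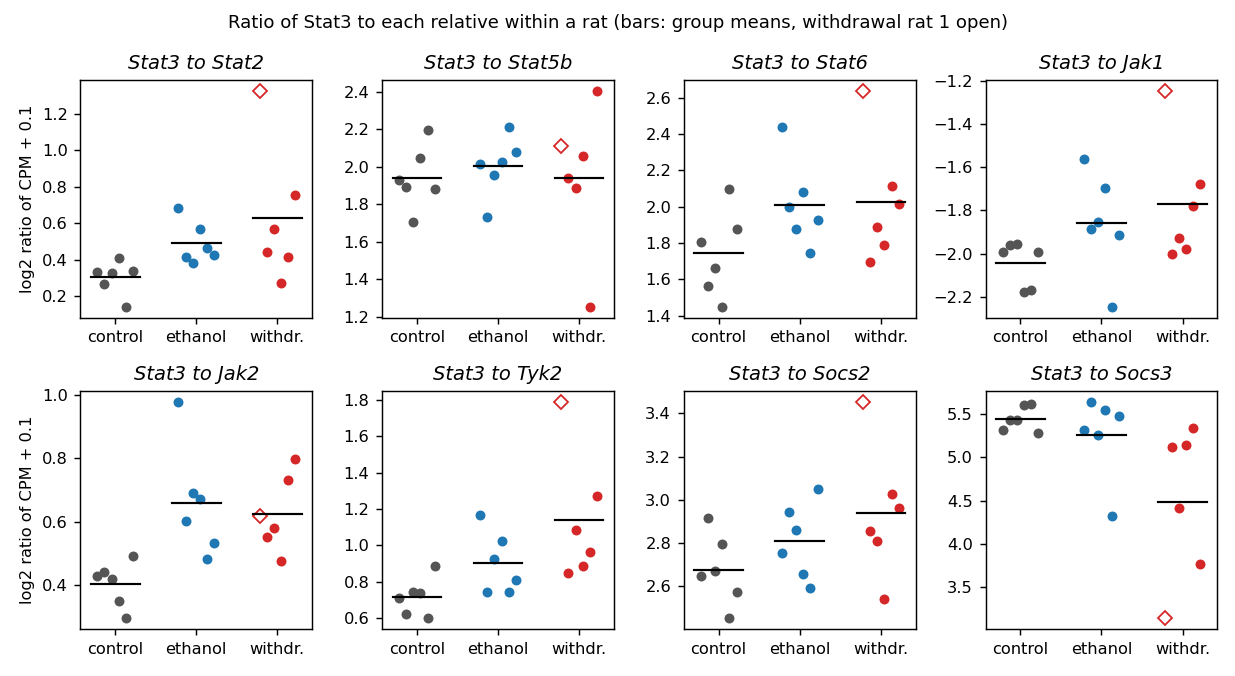
Log2 ratio of Stat3 to each of the other 8 genes within a rat (vertical axes, CPM + 0.1), by group (horizontal axes). Points are rats, bars are group means, and the open diamond is withdrawal rat 1. The ratio to Stat5b has the same mean in control and withdrawal rats (1.94), whereas the ratio to Tyk2 is 0.42 higher and the ratio to Socs3 0.96 lower in withdrawal than in control rats.

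To compare Stat3 with its relatives, the log2 ratio of Stat3 to each other member was taken within each rat, which removes the scaling of the library. In all 24 such ratios were tested by exact permutation (8 relatives, 3 comparisons, 6 rats against 6), with Benjamini-Hochberg adjustment over the 24. Stat3 rose against 2 kinases in withdrawal over control rats, by 0.42 (SE 0.15) relative to Tyk2 and by 0.22 (SE 0.06) relative to Jak2 (adjusted exact permutation p = 0.0312 for both). In the same comparison it fell by 0.96 (SE 0.36) relative to Socs3 (adjusted exact permutation p = 0.0312). The difference was 0.33 relative to Stat2, 0.28 to Stat6, 0.27 to Jak1 and 0.27 to Socs2, and none of these passed the adjustment at 0.05 (adjusted exact permutation p from 0.0952 to 0.208). When 1 rat was left out they ran, in that order, from 0.19 to 0.40, 0.16 to 0.35, 0.17 to 0.32 and 0.16 to 0.35. Relative to Stat5b the difference was 0.00 with an SE of 0.17, so a difference of that size in either direction was not detectable. The ratio to Jak2 was already high in ethanol rats, which exceeded control rats by 0.26 (SE 0.08, adjusted exact permutation p = 0.0312), as was the ratio to Stat2, by 0.19 (SE 0.06, adjusted p = 0.0312 by the same test). Between withdrawal and ethanol rats no ratio passed the adjustment, the lowest adjusted exact permutation p being 0.17 for Socs3.

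**Figure D4:**
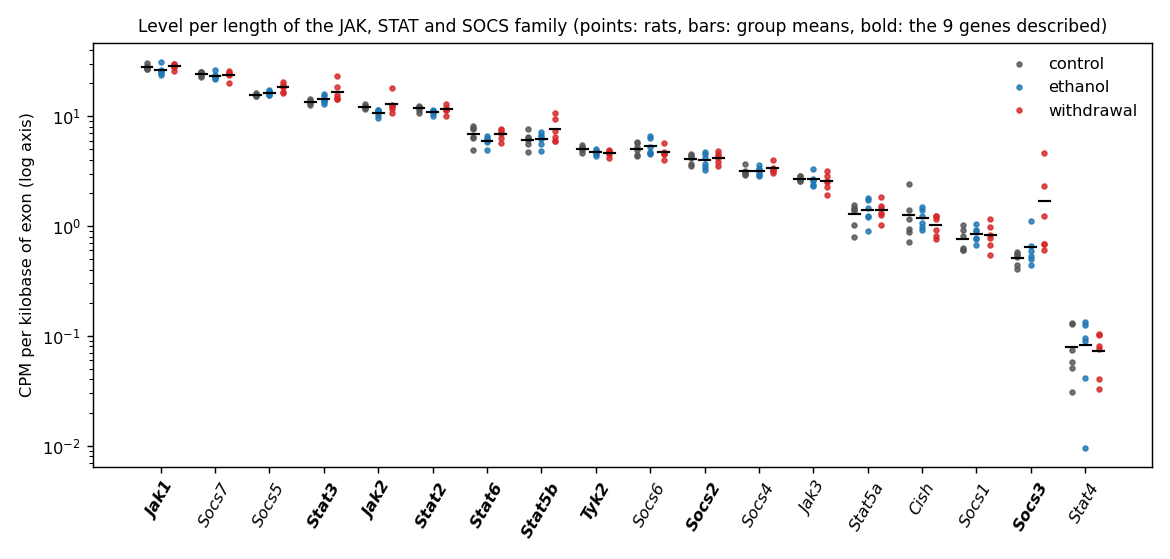
CPM per kilobase of exon (vertical axis, log scale) of 18 genes of the family (horizontal axis), ordered by their mean in control rats, with the 9 genes described here in bold. Points are rats and bars are group means. Jak1 stands at the top with 28.1 and Stat4 at the bottom with 0.0786 in control rats, and Socs3 spreads most in withdrawal rats.

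Levels of different genes were compared per kilobase of the exon length in the deposited annotation. In control rats the order of the members was Jak1 (28.1 ± 1.30 CPM per kb, SD), Stat3 (13.5 ± 0.611), Jak2 (12.2 ± 0.408), Stat2 (11.8 ± 0.613), Stat6 (6.90 ± 1.23), Stat5b (6.12 ± 0.968), Tyk2 (5.06 ± 0.301), Socs2 (4.11 ± 0.415) and Socs3 (0.509 ± 0.0686). The ranges of the 6 control rats overlapped between Stat3 and Jak2, between Jak2 and Stat2, between Stat6 and Stat5b, and between Stat5b and Tyk2. Compared within each control rat, Stat3 was above Jak2 in 6 of 6, Jak2 above Stat2 in 3, Stat6 above Stat5b in 5 and Stat5b above Tyk2 in 5. In control rats Jak1 stood above every other gene of the family, and Socs3 stood below every other member. In withdrawal rats the mean of Socs3 was 1.69 ± 1.57 CPM per kb, with a range of 0.602 to 4.61 whose top is withdrawal rat 1.

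Of 9 other genes of the family 8 were tested. Stat4, a STAT of lymphocytes, stayed under the filter (0.0786 CPM per kb in control rats). Socs7 (24.4 CPM per kb in control rats) and Socs5 (15.6) had the highest levels of the SOCS genes, Socs6 (5.06), Socs2 (4.11) and Socs4 (3.16) followed, and Cish (1.25) and Socs1 (0.762) were low. Jak3 had 2.69 and Stat5a 1.28 CPM per kb. Between withdrawal and control rats 1 of the 8 was called (background 5.41%), Socs5, a less studied inhibitor of cytokine signaling. Control rats had 103 to 111 CPM of Socs5, ethanol rats 105.7 to 119 and withdrawal rats 111 to 139, and 5 of the 6 last exceeded the control rats (log2 fold change 0.19, SE 0.03, limma-voom q = 0.0123; exact permutation p = 0.00433). Socs5 was called in all 18 fits that left out 1 rat, while Stat3 was called in 17, Socs3 in 16 and Stat5b in 11. Without surrogate variables its q was 0.115 (limma-voom). None of the 8 was called by limma-voom in the other 2 comparisons, and in each of them 1, Socs5, had an unadjusted p under 0.05 (16.7% of all genes against ethanol rats and 12.5% in ethanol over control rats).

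Upstream of the family, the listed ligands were mostly scarce. Of 19 cytokine genes that signal through JAKs, 7 passed the filter, and Il6 (0.0709 CPM in control rats) did not. Lif, a gp130 cytokine, was the one ligand of the 7 called (background 5.41% of genes against control and 2.72% against ethanol rats), increased in withdrawal over control rats (log2 fold change 1.84, SE 0.36, limma-voom q = 0.0218) and over ethanol rats (1.34, SE 0.37, limma-voom q = 0.0912). Control rats had 0.160 to 0.336 CPM of Lif and withdrawal rats 0.517 to 3.68 CPM, without overlap. Such a separation in this direction held for 0.521% of all genes tested. No control rat reached the 0.5 CPM that the filter asks of at least 1 rat, while every withdrawal rat did. Lif thus passed the filter only through rats fed ethanol, and its place among the 7 ligands tested is not independent of this difference. When the highest rat, withdrawal rat 1, was left out, the log2 fold changes of Lif were 1.49 over control rats (limma-voom q = 0.0337) and 1.02 over ethanol rats (q = 0.10003, not called). Over control rats Lif was called in 17 of the 18 fits that left out 1 rat and not without withdrawal rat 6 (1.92, limma-voom q = 0.114), and over ethanol rats in 7 of 18. Without surrogate variables q was 0.157 and 0.0902. All 25 listed receptor genes were tested. Osmr, the receptor chain that pairs with gp130 for oncostatin M, was increased in withdrawal over control (log2 fold change 0.86, limma-voom q = 0.0746) and over ethanol rats (0.97, limma-voom q = 0.0967). Il21r, the interleukin-21 receptor, was decreased in withdrawal relative to control rats (log2 fold change -0.74, SE 0.19, limma-voom q = 0.0504). These were 2 of 25 receptors called against control rats (background 5.41%) and 1 of 25 against ethanol rats (2.72%). Without withdrawal rat 1, which had the highest Osmr level at 13.8 CPM, the log2 fold changes of Osmr were 0.58 (limma-voom q = 0.0893) and 0.76 (q = 0.0605). Osmr was called in 12 of the 18 fits that left out 1 rat over control and in 7 over ethanol rats, and Il21r in 17. Neither was called without withdrawal rat 6 (limma-voom q = 0.24 and 0.393 for Osmr and 0.17 for Il21r). In the model without surrogate variables limma-voom called none of the 25 receptors (background 0.23% against control and 3.48% against ethanol rats), with q = 0.318 and 0.158 for Osmr and 0.116 for Il21r. The gp130 gene Il6st itself, with a mean of 165 CPM in control rats against 172 CPM after withdrawal, was not called (log2 fold change 0.07, limma-voom q = 0.259). Of 18 genes for phosphatases, PIAS proteins and adaptors, 0 were called by limma-voom in withdrawal against control rats, where 3 had an unadjusted p under 0.05 (19.7% of all genes did). In withdrawal against ethanol rats 1 was called, where 2.72% of all genes were, the phosphatase gene Ptpn6 (log2 fold change 0.35, limma-voom q = 0.0585, and q = 0.331 without withdrawal rat 6). In ethanol against control rats limma-voom called 0 (background 0.493%), with 7 at an unadjusted p under 0.05 (12.5% of all genes).

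**Figure D5:**
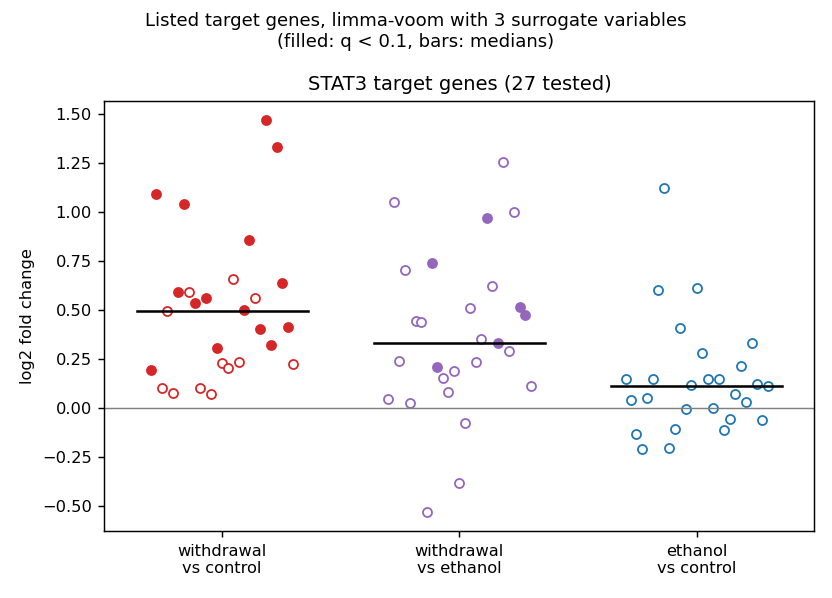
Log2 fold change (vertical axis) of the listed STAT3 target genes in the 3 comparisons (horizontal axis). Each point is a gene, filled where q < 0.1, and bars are medians. All 27 genes tested lie above 0 in withdrawal over control rats, with a median of 0.49.

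Downstream, 27 of 30 listed STAT3 target genes were tested. All 27 had a higher fitted level in withdrawal than in control rats, 15 were called and their median log2 fold change was 0.49, beside a median of 0.00 over all genes and 2.85% called higher. The list is not independent of these data, since 8 of the 27 are members or were named as STAT3 targets by the study from these rats, and those 8 were all called. Of the other 19, 7 were called and the median was 0.30. The whole list, these 19 included, was chosen with earlier results of these data known. Without withdrawal rat 1, 9 of the 27 were called (background 1.86% called higher), without rat 6 0 were (background 0.129% in either direction), and without surrogate variables limma-voom called 1 of 27 (background 0.0784% called higher). Besides Stat3 and Socs3 the genes with the lowest q were Pim3, a survival kinase, Tnfrsf1a, a receptor of tumor necrosis factor, Vegfa, the vascular growth factor, and Cebpd, a transcription factor of the acute phase response. Pim3 ran from 31.3 to 36.9 CPM in control rats and, without overlap, from 38.8 to 53.8 CPM after withdrawal (log2 fold change 0.40, SE 0.07, limma-voom q = 0.0195). Such a separation in this direction held for 0.521% of all genes tested. Pim3 kept its call without surrogate variables (limma-voom q = 0.0695). Tnfrsf1a changed by 0.64 (SE 0.12, limma-voom q = 0.0199), Vegfa by 0.41 (SE 0.10, q = 0.0478) and Cebpd by 0.59 (SE 0.15, q = 0.0504). Against ethanol rats 6 of the 27 were called higher (background 1.23%) and the median was 0.33. Leaving out ethanol rat 2, ethanol rat 3 or withdrawal rat 6 left 0 genes DE in that comparison, in the list as over all genes. Between ethanol and control rats limma-voom called 0 of the 27 (background 0.493%), with 5 at an unadjusted p under 0.05 (12.5% of all genes).

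Of 9 listed targets of STAT5 that were tested 1 was called higher in withdrawal than in control rats (background 2.85% of genes), Bcl2l1, which blocks apoptosis and stands in the STAT3 list too (log2 fold change 0.19, limma-voom q = 0.059, with q = 0.138 without surrogate variables and 0.283 without withdrawal rat 6). The median of the 9 was 0.04.

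The genes whose levels followed Stat3 most closely over the 18 rats were Mapkapk2 (Pearson r = 0.963, Spearman rho = 0.897), Trim47 (r = 0.935, rho = 0.804), S1pr3 (r = 0.934, rho = 0.837), Bcl3 (r = 0.933, rho = 0.707) and Tmem100 (r = 0.930, rho = 0.761). They were picked for this likeness from 15144 genes with a mean of at least 1 CPM, so the values are a description. Without withdrawal rat 1 their r lay between 0.811 and 0.917, and without the 2 rats farthest from the median between 0.611 and 0.873. For Socs3 the same rule gave Tnfrsf1a (r = 0.947, rho = 0.783), Bcl3 (r = 0.938, rho = 0.765), Spaca6 (r = 0.909, rho = 0.800), S1pr3 (r = 0.901, rho = 0.744) and Lrrc8c (r = 0.892, rho = 0.501). Bcl3 and S1pr3 were thus on both lists. Without withdrawal rat 1 the r of these genes with Socs3 lay between 0.799 and 0.888. Without the 2 rats farthest from the median it lay between 0.638 and 0.795. Between Stat3 and Socs3 themselves r was 0.880 and rho 0.664 over 18 rats, r was 0.712 without withdrawal rat 1, and 0.375 without the 2 rats farthest from the median, so this relation rests largely on withdrawal rats 1 and 6. Jak2 had r = 0.652 with Stat3 over all rats and 0.01 without withdrawal rat 1, and Tyk2 had r = -0.649 and -0.478. The rats of 3 groups are pooled in these values.

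The listed markers of astrocytes, microglia, endothelium, neurons and oligodendrocytes, 10 of each, all had a mean above 0.5 CPM. Summed astrocyte markers reached 4685 to 5139 CPM in control, 4300 to 4893 CPM in ethanol and 4482 to 5825 CPM in withdrawal rats, and 5 of the last exceeded all control rats. The most abundant markers weigh most in such a sum. Taken singly, 4 of the 10 had a higher and 6 a lower fitted level in withdrawal than in control rats (median log2 fold change -0.014). Of the 10 astrocyte markers 1 was called higher (Gfap, the filament protein of reactive astrocytes, log2 fold change 0.54, limma-voom q = 0.0775) and 2 were called lower after withdrawal (Aldh1l1, -0.41, q = 0.0487, and Gja1, -0.13, q = 0.0866), beside 5.41% of all genes called in either direction and 2.85% higher. In that comparison Gfap (q = 0.197) and Gja1 (q = 0.143) were not called without withdrawal rat 1, and without surrogate variables 0 of the 10 were (limma-voom). Without withdrawal rat 6 q was 0.197 for Gfap, 0.216 for Aldh1l1 and 0.289 for Gja1. Of the 18 fits that left out 1 rat, Gfap was called in 9, Aldh1l1 in 16 and Gja1 in 7. Against ethanol rats Gfap was the 1 astrocyte marker of 10 called (background 2.72%), with a log2 fold change of 0.74 (limma-voom q = 0.0578, called in 15 of 18 such fits). For endothelial markers the sums were 345 to 422 CPM in control, 376 to 456 CPM in ethanol and 375 to 489 CPM in withdrawal rats, the highest being withdrawal rat 1. Of the 10 endothelial markers 5 were called higher and 0 lower after withdrawal relative to control rats (background 2.85% higher). The count was 2 without withdrawal rat 1 and 0 without surrogate variables. Of the microglia markers 2 of 10, C1qb and C1qc, were called higher (background 2.85%), with 1 called without withdrawal rat 1 and 0 without surrogate variables, and their sum ran from 323 to 387 CPM in control rats and from 307 to 389 CPM after withdrawal. Of the oligodendrocyte markers 2 of 10, Pdgfra and Olig2, were called higher (background 2.85%). Of the neuron markers 1 of 10, Prox1, was called lower, as were 456 of the 17853 genes tested. Without surrogate variables 0 of either list were called. In both lists 5 markers had a higher and 5 a lower fitted level, with medians of -0.030 (oligodendrocyte) and -0.0054 (neuron). Summed oligodendrocyte markers ran from 13066 to 17953 CPM in control rats and from 13103 to 15593 CPM after withdrawal. Pericyte and fibroblast markers reached 543 CPM in withdrawal rat 5, the rat with the highest Stat5b level (control rats 153 to 185 CPM), and 1 of the 7 tested, Pdgfrb, was called higher (background 2.85%). The called markers are named after their values were seen. In whole tissue a change in the number of cells of a type and a change in RNA per cell cannot be told apart, and the part of these markers in the Stat3, Stat5b and Socs3 results was not tested.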

How the data were processed

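The authors aligned paired reads of stranded libraries to Rnor_6.0 with STAR 2.5.2a and deposited, for each of 18 rats, the raw counts of read pairs on the exons of 38445 genes. The counts came from featureCounts 1.5.0 with strand taken into account and multi-mapping read pairs left out, per the file headers. The sample labels gave the condition and the replicate number. Gene identifiers were named with the RefSeq table of GRCr8 (29322 named), which also gave the promoter sequences. In the 45 pairs of rats of one group the chi-square per degree of freedom was at least 5.44, so no library repeated another.

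Counts were scaled by TMM in edgeR 4.0.16, and a gene needed more than 0.5 CPM in 1 or more rats. Following the study's methods, surrogate variables (sva 3.50.0, log2 CPM, prior count 2) entered limma-voom (limma 3.58.1, R 4.3.3) with all 3 groups in one model. The methods do not give their number, and 3 were used. Permutation tests covered all 924 splits of log2(CPM + 0.1), with Python 3.11.15 and scipy 1.17.1. The limma-voom fit was run on simulated counts for withdrawal against control, with 200 genes changed (median fitted log2 fold change 0.99 with 3 surrogate variables). It recovered 175 of them with 3 surrogate variables and 183 without. The simulation held no hidden source of variation and no small changes like those of Stat3 and Stat5b. It therefore does not test the number of surrogate variables used. Alternatives included DESeq2 1.42.0, edgeR's quasi-likelihood test, other scalings, filters and numbers of surrogate variables, and leaving out each rat.

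The members, gene lists and motifs were chosen with earlier results of these data known. Named genes are the members, the other family genes, up to 6 genes per list with the lowest q among those called in any comparison, and the 5 most correlated with Stat3 and with Socs3. Il6, Il6st and the markers Gfap, Aldh1l1 and Gja1 were named after their values were seen. Some genes and lists of the pathway are not reported here. Depth was at least 30873228 counts per rat, and Poisson intervals cover counting error only.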

Additional observations from a re-analysis of the deposited data

Results flagged for a closer look

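In 3 of the 27 sets of values tested (9 genes in 3 groups), 1 rat lay far from the other 5 of its group by Dixon's criterion, which chance alone gives in about 1 of 20 sets. Ethanol rat 5 was high in Jak1 (275 CPM) and in Socs3 (2.80 CPM). Withdrawal rat 1 was high in Jak2 (68.0 CPM). Without ethanol rat 5 the log2 fold change of Socs3 in ethanol over control rats was -0.18 in place of 0.21 and that of Jak1 was -0.12 in place of -0.07 (limma-voom), neither called. Without withdrawal rat 1 that of Jak2 in withdrawal over control rats was -0.02 in place of 0.09, not called.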

How the results depend on the processing

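The Stat3, Stat5b and Socs3 calls between withdrawal and control rats depended on the number of surrogate variables and were all lost without withdrawal rat 6. The log2 fold change of Stat3 in that comparison kept its direction in all 19 settings fitted to all rats and was called in 12. It was not called without surrogate variables (0.29, limma-voom q = 0.26), with 1 (0.27, q = 0.219), with edgeR (0.31, q = 0.208) or DESeq2 (0.31, q = 0.104) without surrogate variables, with sample quality weights without them (0.23, q = 0.134), or with only the 2 groups compared (0.28, q = 0.33). Over the 18 fits that each left out 1 rat it lay between 0.22 and 0.38. Without surrogate variables as well, which was added after seeing the data, it was 0.19, 0.33, 0.31, 0.33, 0.32 and 0.26 without withdrawal rats 1 to 6, never called. Against ethanol rats Stat3 was not called in the main model but was with 4 (0.29) and 5 surrogate variables (0.23), edgeR (0.30), DESeq2 (0.30), quality weights (0.27), RLE scaling (0.29) and upper quartile scaling (0.29), and lay between 0.22 and 0.35 when 1 rat was left out. Of the latter fits, those without ethanol rat 1, 4 or 5 or without any of withdrawal rats 1 to 5 called it. These fits called 2.13% to 10.1% of all genes. In ethanol over control rats it changed sign with 2 (-0.0053) and 5 surrogate variables (-0.019), and ranged from 0.0049 to 0.077 when 1 rat was left out. The cause was not tested in any of these cases.

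The number of members called between withdrawal and control rats, 3 in the main model, was 0 without surrogate variables, with 1 and with edgeR, quality weights or 2 groups only without them, and 1 with 2 surrogate variables, with DESeq2 without them or at q < 0.05. Apart from the setting of q < 0.05, these fits called 0 to 3.33% of all genes (5.41% in the main model). Leaving out 1 rat gave 0 (without withdrawal rat 6, 0.129% of all genes called) to 4 (without withdrawal rat 2, 10.7%). Without surrogate variables and 1 withdrawal rat it was 0, with 0 to 1.9% of all genes called. Between withdrawal and ethanol rats the count was 1 with 1 surrogate variable, edgeR, RLE, upper quartile scaling or a filter of at least 6 rats, 2 with 5 surrogate variables, with quality weights with or without them and with DESeq2 without them, 3 with 4 surrogate variables or DESeq2, in fits that called 2.53% to 8.36% of all genes (2.72% in the main model). It was 0 to 3 when 1 rat was left out, with 0 to 10.1% of all genes called.

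Small differences that were not called changed sign. Stat5b in ethanol over control rats was -0.017 with 2 and -0.0021 with 5 surrogate variables, -0.0065 with upper quartile scaling, -0.0016 with library size only and -0.00089 with the filter of 6 rats, and -0.039 to 0.044 when 1 rat was left out. In withdrawal over control rats Stat2 was 0.015 and Jak2 -0.018 with 5 surrogate variables, and Stat6 was -0.0033 with edgeR and -0.0046 with DESeq2 without them. Leaving out 1 rat gave -0.022 to 0.14 for Jak2, -0.066 to 0.096 for Stat6 and -0.0044 to 0.091 for Socs2. Socs3 in ethanol over control rats was -0.011 with 2 surrogate variables and -0.18 to 0.63 when 1 rat was left out. Without surrogate variables and without withdrawal rat 1, Stat2 was 0.00055 and Jak2 -0.031 against control rats and Tyk2 0.0083 against ethanol rats. Without rats 2 and 6 in turn Stat6 was -0.0054 and -0.013, and without rats 4 and 6 Socs2 was -0.019 and -0.0074. Among withdrawal rats that share the index set of ethanol rats Stat2 differed by -0.031. The ratio of Stat3 to a relative kept its direction and its side of the threshold in 270 of the alternatives and changed sign in 16. In 18 others an unadjusted exact permutation p passed from under to over 0.05 and in 8 the reverse, none of them among the 5 ratios with an adjusted p of 0.0312. The changes of sign all came on leaving out 1 rat: to Stat5b from -0.092 to 0.14 (withdrawal over control) and -0.15 to 0.078 (over ethanol), to Jak2 from -0.069 to 0.030, to Stat6 from -0.11 to 0.099 and to Jak1 from -0.014 to 0.15 (all over ethanol), and to Socs3 from -0.26 to 0.0053 (ethanol over control).

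Correlations of rats with the same replicate number were -0.325 to 0.0778 between withdrawal and control rats, -0.31 to 0.383 between withdrawal and ethanol rats and -0.265 to 0.333 between ethanol and control rats, and a rat correlated best with its own number in 0, 1 and 3 of 6 cases. Not every pair exceeded 0.1 in any comparison, and the labels name no shared litter or day, so the numbers were not taken to pair the rats. The paper states that rats were pair fed, but the labels do not give the matches, so this check cannot exclude pairing. With the replicate block Stat5b in ethanol over control rats was -0.016, and without surrogate variables the blocked Stat3 value between withdrawal and control rats was 0.29 (limma-voom q = 0.262), with 0 members called and 0 genes called in all. With surrogate variables the block left 2 members called between withdrawal and control rats (5.12% of all genes). Between withdrawal and ethanol rats it left 0 members and 1 of 17853 genes called (486 in the main model). Between ethanol and control rats it left 0 members and 26 genes called (88 in the main model). At most 1 of the calls against ethanol rats given above was therefore kept with this block. Counting error matters for genes with few read pairs, such as Socs3, Lif and Il21r.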
